A study of Mus musculus with 8 samples.

Results

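The Kruppel-like factors (KLFs) are zinc finger transcription factors that bind GC-rich and CACCC sequences, and 8 of the 17 Klf genes among the 50686 gene IDs of the count table are described here in mouse hematopoietic stem cells (HSCs) sorted by size. The 8 are Klf2, Klf3, Klf4, Klf6, Klf7, Klf9, Klf10 and Klf13, taken by symbol from the GENCODE M21 annotation, and all 8 passed the filter on low counts that left 16066 genes for testing. KLFs fall into classes by the partners they bring to DNA. Klf2, Klf4, Klf6 and Klf7 belong to the class that mostly activates transcription, Klf3 recruits the CtBP corepressors, and Klf9, Klf10 and Klf13 recruit the Sin3A corepressor complex. Several, among them Klf2, Klf4, Klf6 and Klf10, are induced quickly by growth factors, shear stress or cytokines, and Klf2 is known for holding T cells in quiescence.

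HSCs, the marrow cells that maintain the blood lineages, came from C57BL/6J mice whose age, sex and number per library the labels do not give, and for which they name no modified allele and no drug. Lineage-depleted marrow was sorted on the surface markers CD150, CD48, Sca-1 and CD117 and on light scatter, and 10000 cells in G0/1 went into each library. The Large gate took the 10% largest HSCs, the Medium gate those near the mean size (plus or minus 10%) and the Small gate the 10% smallest, and All had no size gate. Each group had 2 libraries, numbered 1 and 2 in their titles, with total counts between 13698362 and 16838448.

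The libraries differed by number as well as by gate, and markers of maturing cells were abundant. The 20 granulocyte and monocyte markers, none of them at 0 in all libraries, summed to 26926 to 50468 CPM (counts per 1000000 reads assigned to genes, after edgeR's TMM scaling between libraries) in Large, 10757 to 29012 in Medium, 15174 to 51969 in Small and 5074 to 67225 in All, with number 1 above number 2 in each group. The 20 HSC identity genes summed to 1185 to 2380 CPM in Large, 2291 to 3276 in Medium, 2102 to 3967 in Small and 2136 to 4400 in All, with number 2 above number 1 in each group. Among the sorted antigens, Slamf1 (CD150) was present at 7.58 to 22.6 CPM over the 8 libraries, and Cd48, whose product the standard HSC gate lacks, at 12.0 to 159 CPM. Ly6a (Sca-1) had 20.4 and 186 CPM in Large 1 and 2, 90.4 and 366 in Medium, 45.7 and 288 in Small, and 57.6 and 307 in All. Kit (CD117) had 513 and 699 CPM in Large 1 and 2, 662 and 841 in Medium, 852 and 1196 in Small, and 655 and 1017 in All. Both were lowest in Large within each number. Values of each library are therefore compared within its own number below. In bulk RNA, fewer cells of a type and less RNA per cell cannot be told apart, and CPM is a relative abundance.

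Levels between genes are compared in TPM, the deposited measure that accounts for transcript length. Klf6 was the most abundant of the 8, with 100 to 359 TPM over the 8 libraries and a mean of 212. Klf10 followed with 47.3 to 150 TPM, then Klf3 with 26.7 to 78.5, Klf13 with 15.9 to 31.1, Klf2 with 11.8 to 27.2, Klf9 with 5.76 to 41.1, Klf4 with 1.28 to 14.5 and Klf7 with 2.60 to 6.33. Klf6 lay above Klf10, Klf10 above Klf3, Klf3 above Klf13, and Klf9 above Klf4 in 8 of 8 libraries. Other neighbours changed places: Klf13 lay above Klf2 in 7 of 8 libraries, Klf2 above Klf9 in 5 and Klf4 above Klf7 in 3.

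**Figure D1:**
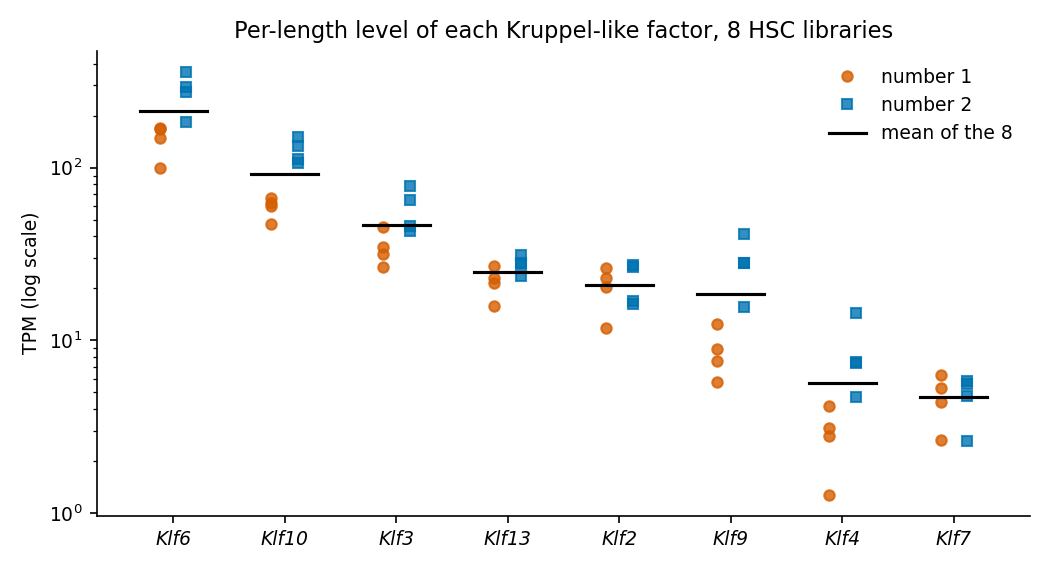
TPM (log axis) of each of the 8 genes in each library, with circles for libraries numbered 1, squares for those numbered 2 and a line at the mean of the 8 libraries. Klf6 stands highest at a mean of 212 TPM, and Klf6, Klf10, Klf9 and Klf4 split by number.

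Of the 8 members, 7 had less mRNA in Large than in Small HSCs within both replicate numbers, as did 30.9% of all tested genes, and none was higher within both, as 32.9% of genes were. Klf7 was the exception. The fitted log2 fold changes of all 8 were below 0, with a median of -0.47 beside 0.00 for all tested genes. Within numbers 1 and 2 the members' medians were -0.58 and -0.41. Fitted across numbers, the median moved when 1 library was left out. It was -0.09 with 6 of 8 below 0 without Small 2, and -0.15 with 7 below 0 without Large 1. Without Large 2 it was -0.88 with 8 below 0. Such a fit sets both numbers of a gate against 1 number of the other. No member passed the edgeR quasi-likelihood test with Benjamini-Hochberg adjustment in Large against Small, where 0 of 16066 genes did (0%). At an unadjusted p under 0.05 there was 1 member, Klf2, against 506 genes in all (3.15%). With the replicate number as a block, which takes the difference between numbers out of the spread, edgeR again called 0 of 16066 genes (0%) and gave 4 members an unadjusted p under 0.05, Klf2, Klf6, Klf10 and Klf13, where 17.4% of all genes had one. DESeq2 with that block gave 2 members an adjusted p under 0.05, Klf2 and Klf6, both lower in Large, where 13.8% of the 10459 genes it adjusted had one and 6.57% were lower. Limma-voom with the block called 0 members and 1.28% of genes. All but Klf7 kept their side within both numbers under the other scalings and on the TPM scale.

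**Figure D2:**
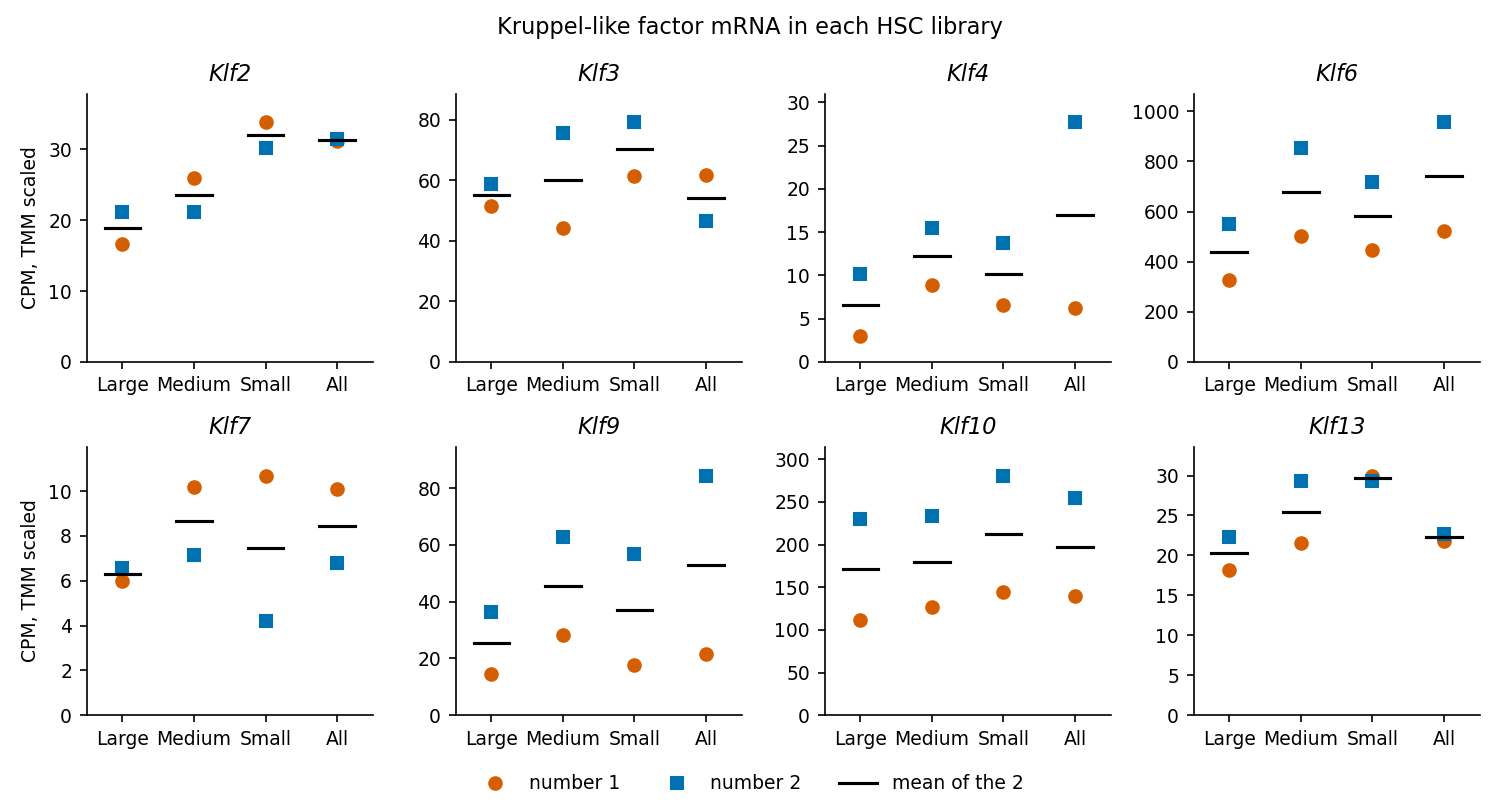
CPM after TMM scaling of each gene in Large, Medium, Small and All HSCs, with circles for number 1, squares for number 2 and a line at the mean of the 2 libraries. In Klf2, both Large libraries (16.7 and 21.2 CPM) lie below both Small libraries (33.8 and 30.2 CPM), as in 14.7% of tested genes. In Klf4, Klf6, Klf9 and Klf10 the square lies above the circle in every group, as in 22.9% of tested genes.

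The bases upstream of Klf2, Klf6 and Klf9 are shown because these are the members given an adjusted p under 0.05 in a comparison with Large by DESeq2 with the block. They come from RefSeq's promoters on GRCm38.p6, which held 7 of the 8 members, and each run ends where the GENCODE M21 exons begin. Capitals mark matches on either strand to CCAAT, the MEF2 motif, a forkhead motif (TGTTTAC), the AP-1 motif (TGANTCA), the E-box (CACGTG) or TGACG, the core of the cyclic AMP response element.
Klf2 (chr8:72318812-72319032, + strand): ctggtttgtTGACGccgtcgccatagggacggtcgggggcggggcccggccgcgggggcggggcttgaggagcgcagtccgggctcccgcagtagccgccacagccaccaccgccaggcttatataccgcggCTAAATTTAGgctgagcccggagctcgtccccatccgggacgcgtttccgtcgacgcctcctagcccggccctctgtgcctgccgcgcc
Klf6 (chr13:5861239-5861481, + strand): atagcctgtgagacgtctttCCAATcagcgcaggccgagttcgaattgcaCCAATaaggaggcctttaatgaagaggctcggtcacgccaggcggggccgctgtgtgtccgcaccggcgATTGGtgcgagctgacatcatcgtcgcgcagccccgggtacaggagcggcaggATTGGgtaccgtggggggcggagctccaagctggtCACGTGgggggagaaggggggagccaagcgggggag
Klf9 (chr19:23140976-23141225, + strand): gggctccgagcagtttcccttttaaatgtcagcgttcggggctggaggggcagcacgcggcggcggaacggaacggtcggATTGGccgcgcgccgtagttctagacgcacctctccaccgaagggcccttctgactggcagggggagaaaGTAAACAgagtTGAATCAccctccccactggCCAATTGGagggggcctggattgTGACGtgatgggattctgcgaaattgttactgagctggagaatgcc

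The 3 windows share some motifs and differ in others. In the 250 bases before the RefSeq start, Klf2 has a MEF2 match that begins at -118, a motif found in 1.69% of 32851 such windows, and TGACG at -241 (17.8%). MEF2 proteins, activated through the kinase ERK5, are known to switch on Klf2 in endothelial cells. Klf6 has 4 CCAAT matches, at -230, -200, -131 and -78, in a motif that 33.8% of windows hold at least once, and an E-box at -43 (6.02% of windows). Klf9 has a forkhead match at -100 (3.17%), an AP-1 match at -89 (6.75%), 3 CCAAT matches, of which those at -69 and -66 overlap, and TGACG at -46. The GC box GGGCGG, to which KLF and Sp proteins themselves can bind, is in 6 of the 7 members' windows and in 32.7% of all, and CACCC is in 5 of 7 and in 52.0%. None of the 7 holds the SRF CArG box (1.47%), TATAAA (12.4%) or the full element TGACGTCA (1.55%).

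Klf2 is an activator and had the smallest p of the 8 in Large against Small in the fit without the block. This factor activates S1pr1 in T cells and restrains their cycling. Klf2 (chromosome 8, 72319033 to 72321656 on the plus strand of mm10) had 16.7 and 21.2 CPM in Large 1 and 2, 26.0 and 21.1 in Medium 1 and 2, 33.8 and 30.2 in Small 1 and 2, and 31.1 and 31.4 in All 1 and 2. Both Large libraries were below both Small libraries (14.7% of tested genes) and below both All libraries (16.2%). Both Medium libraries were likewise below both Small (14.3%) and both All libraries (11.2%). In number 1 the level was lowest in Large, higher in Medium and highest in Small, and in number 2 Large and Medium were level. The 2 Large libraries differed by less than the gap between them and the Small libraries. The fitted log2 fold change was -0.75 (SE 0.27, 95% interval -1.40 to -0.11; edgeR adjusted p = 0.975), with values of -1.01 and -0.51 within numbers 1 and 2. DESeq2 with the replicate block gave -0.76 (adjusted p = 0.0443). Large against Medium gave -0.31 (SE 0.27; edgeR adjusted p = 0.989), with -0.63 within number 1 and 0.01 within number 2, where the other scalings put Large below Medium. Klf2 was higher in number 2 than in number 1 in 2 of 4 groups.

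Klf6, an early response factor first known as a suppressor of prostate tumour growth in humans, showed the same small difference within each number. Klf6, the gene with 4 CCAAT matches in its window (chromosome 13, 5861482 to 5870394, plus strand) had 328 and 551 CPM in Large 1 and 2, 501 and 854 in Medium, 447 and 718 in Small, and 524 and 956 in All. Large was the lowest of the 4 libraries within each number, and Large 2 lay above Small 1 and Medium 1, so the groups overlapped. Large against Small came to -0.45 and -0.38 on the log2 scale within numbers 1 and 2, and Large against Medium to -0.61 and -0.63. Fitted without the block, these came to -0.41 (SE 0.44, 95% interval -1.45 to 0.64; edgeR adjusted p = 0.975) and -0.62 (SE 0.44, 95% interval -1.67 to 0.43; adjusted p = 0.989). With the block, edgeR's unadjusted p for Klf6 was 0.00382 in Large against Small and 0.000313 in Large against Medium, with adjusted p of 0.103 and 0.138. DESeq2 with the block gave adjusted p of 0.00229 and 3.47e-06. Medium stood above Small within both numbers, by 0.16 and 0.25 (fitted 0.22, SE 0.44; edgeR adjusted p = 1.00).

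Klf4 is a reprogramming factor that also takes part in monocyte differentiation. Klf4 (chromosome 4, 55527143 to 55532466, minus strand) had 3.0 and 10.2 CPM in Large 1 and 2, 8.88 and 15.5 in Medium, 6.61 and 13.8 in Small, and 6.27 and 27.7 in All. Large was again lowest within each number, and All 2 stood highest of the 8 libraries. These values rest on 42 to 492 counts per library. On the log2 scale, Large against Small gave -1.11 and -0.43 within numbers 1 and 2 (fitted -0.63, SE 0.87, 95% interval -2.70 to 1.45; edgeR adjusted p = 0.975). Large against Medium gave -1.52 and -0.59 (fitted -0.88, SE 0.88; adjusted p = 0.989).

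Klf7, best known from neuronal development in mice, did not share the pattern. Klf7 (chromosome 1, 64029447 to 64122282, minus strand) had 6.00 and 6.58 CPM in Large 1 and 2, 10.2 and 7.14 in Medium, 10.7 and 4.21 in Small, and 10.1 and 6.81 in All. Small 1 was the highest library and Small 2 the lowest. Large against Small was thus -0.82 within number 1 and 0.63 within number 2 (fitted -0.25, SE 0.57, 95% interval -1.59 to 1.10; edgeR adjusted p = 0.976). Both Large libraries lay below both Medium libraries, as in 17.2% of tested genes, although on the TPM scale they did not.

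Klf3, the member that recruits CtBP, differed little between gates in CPM. It is a broad repressor that Klf1 switches on in erythroid cells of the mouse. Klf3 (chromosome 5, 64803388 to 64832901, plus strand) had 51.3 and 58.8 CPM in Large 1 and 2, 44.3 and 75.5 in Medium, 61.5 and 79.1 in Small, and 61.6 and 46.5 in All. Both Large libraries were below both Small libraries, as in 14.7% of tested genes, but not on the TPM scale. Beside Klf3, this held for Klf2 and Klf13, 3 of 8 members in all, and the opposite order for 0 members and 17.7% of genes. Large against Small was -0.26 within number 1 and -0.43 within number 2 (fitted -0.35, SE 0.32, 95% interval -1.10 to 0.40; edgeR adjusted p = 0.975), and Large against Medium was 0.21 and -0.36. On the log2(TPM + 1) scale the fitted difference of Large against Small was larger, at -0.63, beside a median of -0.11 for all genes.

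Klf9 is the first of the members that bind Sin3A and is induced by glucocorticoid and thyroid hormone. Klf9, with the forkhead and AP-1 matches above (chromosome 19, 23141226 to 23168134, plus strand) had 14.6 and 36.4 CPM in Large 1 and 2, 28.3 and 62.8 in Medium, 17.6 and 56.8 in Small, and 21.4 and 84.4 in All. Each library numbered 2 was above every library numbered 1, and Large was the lowest within each number. Large against Medium was -0.95 within number 1 and -0.79 within number 2 (fitted -0.84, SE 0.85, 95% interval -2.86 to 1.19; edgeR adjusted p = 0.989). DESeq2 with the block gave -0.89 (adjusted p = 0.0260), and edgeR with the block an adjusted p of 0.165. Large against Small was smaller, at -0.27 and -0.64 (fitted -0.54, SE 0.85; edgeR adjusted p = 0.975).

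Klf10, first described as an early gene induced by TGF-beta, was split by number and little by gate. Klf10 (chromosome 15, 38291463 to 38300706, minus strand) had 112 and 230 CPM in Large 1 and 2, 127 and 233 in Medium, 144 and 281 in Small, and 140 and 255 in All. Within each number its order was Large, Medium, Small from low to high, as in 5.37% of tested genes. Large 2 still lay above every library numbered 1. Large against Small was -0.37 within number 1 and -0.29 within number 2 (fitted -0.32, SE 0.53, 95% interval -1.57 to 0.93; edgeR adjusted p = 0.975). Large against Medium was -0.19 and -0.02.

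Klf13, known as an activator of Ccl5 in T cells, differed little between numbers in Small and All. Klf13 (chromosome 7, 63886351 to 63938915, minus strand) had 18.2 and 22.3 CPM in Large 1 and 2, 21.5 and 29.3 in Medium, 30.0 and 29.3 in Small, and 21.8 and 22.7 in All. Both Large libraries were below both Small libraries, as in 14.7% of tested genes. Both Small libraries were above both All libraries, as in 12.0% of tested genes, but not on the TPM scale. The mean was 20.2 ± 2.92 CPM in Large and 29.6 ± 0.426 in Small (SD, n = 2 each). Large against Small was -0.72 within number 1 and -0.39 within number 2 (fitted -0.55, SE 0.29, 95% interval -1.23 to 0.12; edgeR adjusted p = 0.975).

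**Figure D3:**
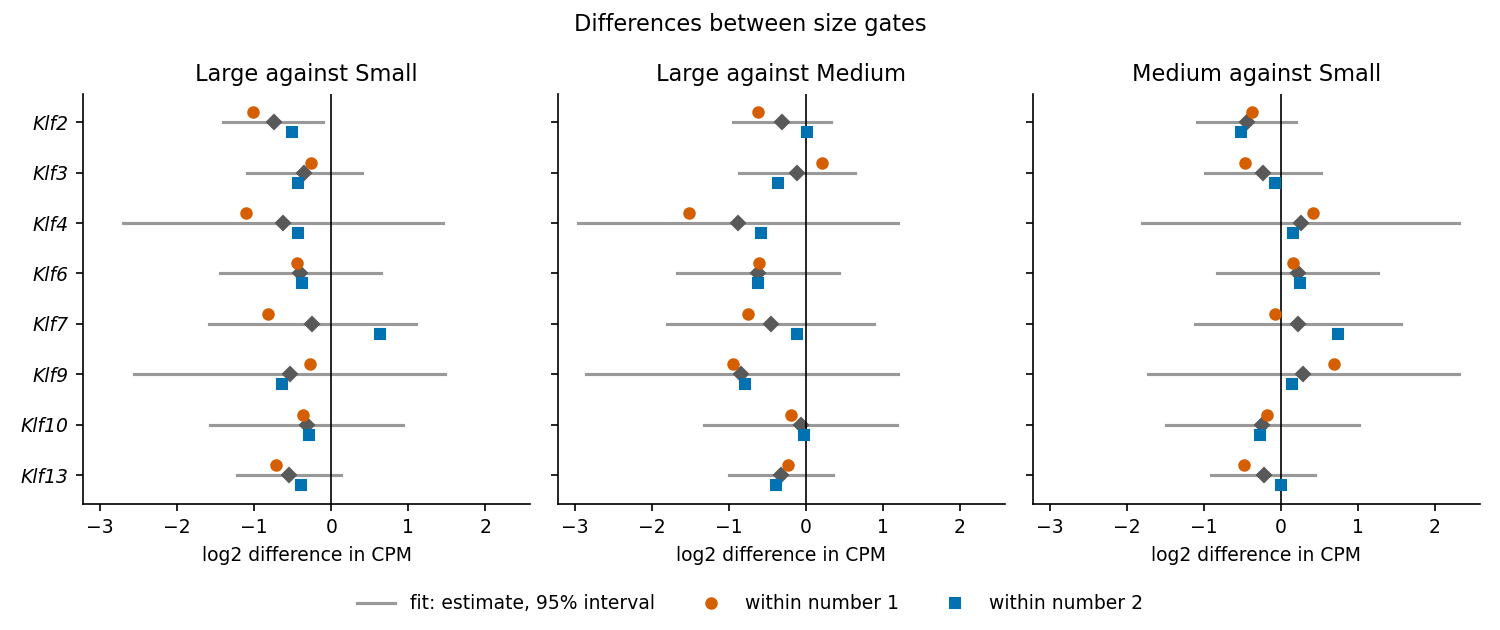
Log2 differences in CPM between size gates, with circles for number 1, squares for number 2, and diamonds and bars for the edgeR estimate without the replicate block and its 95% interval. In Large against Small only the bar of Klf2 (-1.40 to -0.11) leaves out 0 before adjustment, and the 2 values of Klf6 lie close together in all 3 comparisons.

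Set against Medium, 6 of 8 members were lower in Large within both numbers, as were 33.0% of tested genes, and 0 were higher, as were 32.9%. In the same comparison 17 of 20 granulocyte and monocyte markers were higher in Large within both numbers, with median differences of 0.59 and 1.28 within numbers 1 and 2, and 16 of 20 HSC identity genes were lower, with -1.54 and -0.52. The part of either in the KLF values was not tested. The fitted median of the members was -0.39 beside -0.01 for all genes, -0.21 without Medium 2, -0.25 without Large 1 and -0.61 without Large 2. Medium against Small divided the members, and 15 of 20 granulocyte and monocyte markers were lower in Medium within both numbers (medians of -0.69 and -0.31). Klf2, Klf3, Klf10 and Klf13 were lower in Medium within both numbers, as were 29.3% of genes, and Klf4, Klf6 and Klf9 were higher, as were 30.1%. Klf13 in number 2 differed by less than the second decimal (-0.00 on the log2 scale) and turned with upper-quartile scaling and with library totals, and on the TPM scale Klf9 was not higher. With upper-quartile scaling and library totals Klf7 was higher as well. Both Medium libraries were below both Small libraries in Klf2 and Klf13, as in 14.3% of genes, but Klf13 lost this with upper-quartile scaling, library totals and TPM. The edgeR test called 0 members in either comparison, with and without the block, as it did for all genes (0%). Unadjusted p-values under 0.05 went to 0 members in both comparisons without the block, against 301 genes (1.87%) in Large against Medium and 695 (4.33%) in Medium against Small. With the block, edgeR gave 3 members an unadjusted p under 0.05 in Large against Medium, Klf4, Klf6 and Klf9 (14.8% of genes), and 0 in Medium against Small (12.5%). DESeq2 with the block called 2 members in Large against Medium, Klf6 and Klf9, both lower (9.04% of genes called, 3.83% lower), and 0 in Medium against Small (4.74%).

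Against HSCs with no size gate, Large had less of 7 members within both numbers, as in 32.6% of tested genes, Klf3 being the exception. The fitted median was -0.57 beside -0.03 for all genes, but -0.14 with 5 of 8 below 0 without All 2, -0.38 with 5 below 0 without Large 1 and -0.86 without Large 2. With upper-quartile scaling and on the TPM scale all 8 fitted values were below 0, where 7 were with TMM. Within numbers 1 and 2 the log2 differences were -0.89 and -0.56 for Klf2, -1.03 and -1.43 for Klf4, -0.67 and -0.79 for Klf6 and -0.55 and -1.21 for Klf9. The other 4 members lay between -0.74 and 0.34. Medium was lower than All within both numbers in Klf2, Klf6 and Klf10 (24.9% of genes), of which Klf6 was not with library totals or on the TPM scale, and higher in Klf7 (24.6%), by 0.01 and 0.07 and not on the TPM scale. Klf13 was also higher in Medium with upper-quartile scaling and library totals. Small was lower than All in Klf6 and Klf9 (31.3%) and higher in Klf10 and Klf13 (26.7%), which Klf3 joined with DESeq2 size factors and with TPM. The edgeR test called 0 members in each of these comparisons, as it did for all genes (0%). At an unadjusted p under 0.05 it had 1 member in Large against All, Klf2 (504 genes, 3.14%), and 0 in Medium against All (262 genes, 1.63%) and Small against All (637 genes, 3.96%). With the block, edgeR had 4 members at that level in Large against All, Klf2, Klf4, Klf6 and Klf9 (19.8% of genes), 0 in Medium against All (5.26%) and 1 in Small against All, Klf6 (11.5%). DESeq2 with the block called Klf6 and Klf9 lower in Large against All (14.1% of genes called, 5.70% lower), 0 members in Medium against All (0.0747%) and 0 in Small against All (2.69%). Limma-voom with the block called Klf6 in Large against All (0.728%). Comparisons with Large share its 2 libraries, so they do not count separately. Taking all 4 libraries of a number, Large was the lowest within both numbers for Klf4, Klf6, Klf9, Klf10 and Klf13, 5 of 8 members, as for 12.7% of tested genes. With the other scalings and with TPM, Klf2 joined them.

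Several members differed by replicate number in every group. Klf4, Klf6, Klf9 and Klf10 were higher in number 2 than in number 1 in all 4 groups, as were 22.9% of tested genes. Klf13 joined them with upper-quartile scaling, library totals and TPM, and Klf3 with TPM. In Large, Medium, Small and All, the log2 difference of number 2 over number 1 was 1.72, 0.79, 1.04 and 2.12 for Klf4 and 1.31, 1.15, 1.68 and 1.97 for Klf9. It was smaller and more even for Klf6, from 0.68 to 0.87, and for Klf10, from 0.87 to 1.04. For Klf2 it ran from -0.30 to 0.34 and for Klf13 from -0.03 to 0.44. Granulocyte and monocyte markers ran the other way, with number 1 the higher, and the part of other cells in these levels was not tested.

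Of the 9 other KLF genes, 6 could be tested and 0 passed edgeR's test in Large against Small. Klf11, a TGF-beta inducible relative of Klf10, had 45.6 to 117 CPM over the 8 libraries. It had 52.9 and 94.3 CPM in Large 1 and 2 beside 95.6 and 117 in Small 1 and 2 (log2 -0.53, SE 0.42; edgeR adjusted p = 0.975). Klf8 was at 5.08 and 6.18 CPM in Large beside 12.3 and 10.9 in Small (log2 -1.04, SE 0.59; edgeR adjusted p = 0.975). Both its Large libraries were thus below both Small libraries, as in 14.7% of tested genes, but its lowest library was Medium 2, at 4.19 CPM. Klf1, the erythroid factor, ran from 0.338 to 121 CPM and was higher in number 1 than in number 2 in every group, at 121 and 18.3 CPM in Large beside 119 and 9.50 in Small. Klf5 had 3.31 to 11.8 CPM, Klf12 0.500 to 11.9 and Klf16 3.44 to 5.85. Large against Small within numbers 1 and 2 was -0.84 and 0.42 for Klf5 and -0.40 and -0.09 for Klf16. For Klf12 it was -0.63 and 1.67 (fitted 1.17, SE 1.18). Of the 6 tested, 3 were lower and 1 higher within both numbers (30.9% and 32.9% of tested genes), with medians of -0.73 and 0.16. In Large against Medium 0 were lower and 3 higher within both numbers (33.0% and 32.9% of tested genes). Klf15 had 9 counts over all libraries, and Klf14 and Klf17 had 0. Of the Sp family, close relatives of the KLFs, 4 of 9 were tested and 0 passed, with a median of -0.04.

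Genes tied to KLF function were read from lists, and 0 of their members passed edgeR's test in Large against Small in either direction. Immediate early genes outside the KLF family, which share their fast induction and respond to cell handling, had a median log2 fold change of -0.66. Within both numbers 22 of 23 had less mRNA in Large, beside 30.9% of all genes. They summed to 4865 and 6861 CPM in Large and 9215 and 10673 in Small, and their part in the KLF levels was not tested. The lowest fold changes were those of Nr4a3 and Egr1. Nr4a3 was at 0.357 and 3.95 CPM in Large beside 0.648 and 11.2 in Small (log2 -1.45, SE 1.72, edgeR adjusted p = 0.975). Its value in Large 1 lies near the limit set for a gene with no reads, 0.178 to 0.219 CPM. Egr1, a zinc finger factor induced within minutes, was at 181 and 583 CPM in Large beside 685 and 980 in Small (log2 -1.12, SE 0.68; edgeR adjusted p = 0.975). KLF target genes had 9 of 16 lower within both numbers and a median of -0.50. S1pr1, the lymphocyte egress receptor activated by Klf2, was at 12.9 and 45.9 CPM in Large beside 41.9 and 95.7 in Small (log2 -1.23, SE 0.81; edgeR adjusted p = 0.975). DESeq2 with the block gave S1pr1 an adjusted p of 1.73e-06. Smad7, which Klf10 represses, was at 2.0 and 5.66 CPM in Large beside 3.70 and 11.0 in Small (log2 -0.94, SE 0.89, edgeR adjusted p = 0.975).

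Upstream regulators had 11 of 17 lower within both numbers, beside 30.9% of tested genes, and a median of -0.34. Tgfbr2, a receptor for TGF-beta, was at 18.4 and 28.3 CPM in Large beside 34.9 and 68.4 in Small (log2 -1.15, SE 0.41; edgeR adjusted p = 0.975, and 0.000516 by DESeq2 with the block). Foxo1, which can switch on Klf2 in T cells, was at 6.36 and 17.3 CPM in Large beside 17.2 and 22.1 in Small. Its fitted log2 fold change was -0.73 (SE 0.61, edgeR adjusted p = 0.975, and 0.128 by DESeq2 with the block). Corepressors and coactivators had a median of 0.05, with 5 of 13 lower and 5 of 13 higher within both numbers. These counts are near the shares of all tested genes, 30.9% lower and 32.9% higher. HSC identity genes had 15 of 20 lower within both numbers (30.9% of tested genes) and a median of -0.72. Procr (EPCR, a surface receptor of HSCs) was at 5.29 and 60.4 CPM in Large beside 30.3 and 145 in Small, and Hoxa5 at 1.79 and 4.60 CPM in Large beside 2.27 and 13.3 in Small. Fitted without the block, the log2 fold change was -1.42 for Procr (SE 1.33, edgeR adjusted p = 0.975) and -1.28 for Hoxa5 (SE 0.99, edgeR adjusted p = 0.975). DESeq2 with the block gave adjusted p of 8.66e-05 for Procr and 0.215 for Hoxa5. That fit called 14 of 23 immediate early genes, 10 of 20 HSC identity genes, 6 of 16 KLF targets, 2 of 17 upstream regulators and 0 of 13 corepressors and coactivators lower in Large, and 0 of each list higher. Over all genes it called 13.8%, and 6.57% lower.

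In Large against Small, the median of each list of other-cell markers was below 0 within number 1 and above 0 within number 2. Granulocyte and monocyte markers had medians of -0.28 and 0.82 on the log2 scale within numbers 1 and 2, B cell markers -0.66 and 2.43, T and NK cell markers -0.68 and 0.67, and erythroid markers -0.09 and 0.93. Macrophage and dendritic markers had -1.05 and 0.12, megakaryocyte and platelet markers -0.42 and 1.00, mast cell, basophil and eosinophil markers -1.49 and 1.88, and endothelial and stromal markers -0.77 and 0.90. The 8 KLFs had -0.58 and -0.41. Summed B cell markers were 50.1 and 738 CPM in Large 1 and 2 beside 101 and 320 in Small 1 and 2, and summed endothelial and stromal markers 129 and 196 CPM in Large beside 205 and 208 in Small. Mcpt4 and Cma1, the mast cell proteases, were at 0 in all libraries. The part of these cells in the KLF values was not tested.

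**Figure D4:**
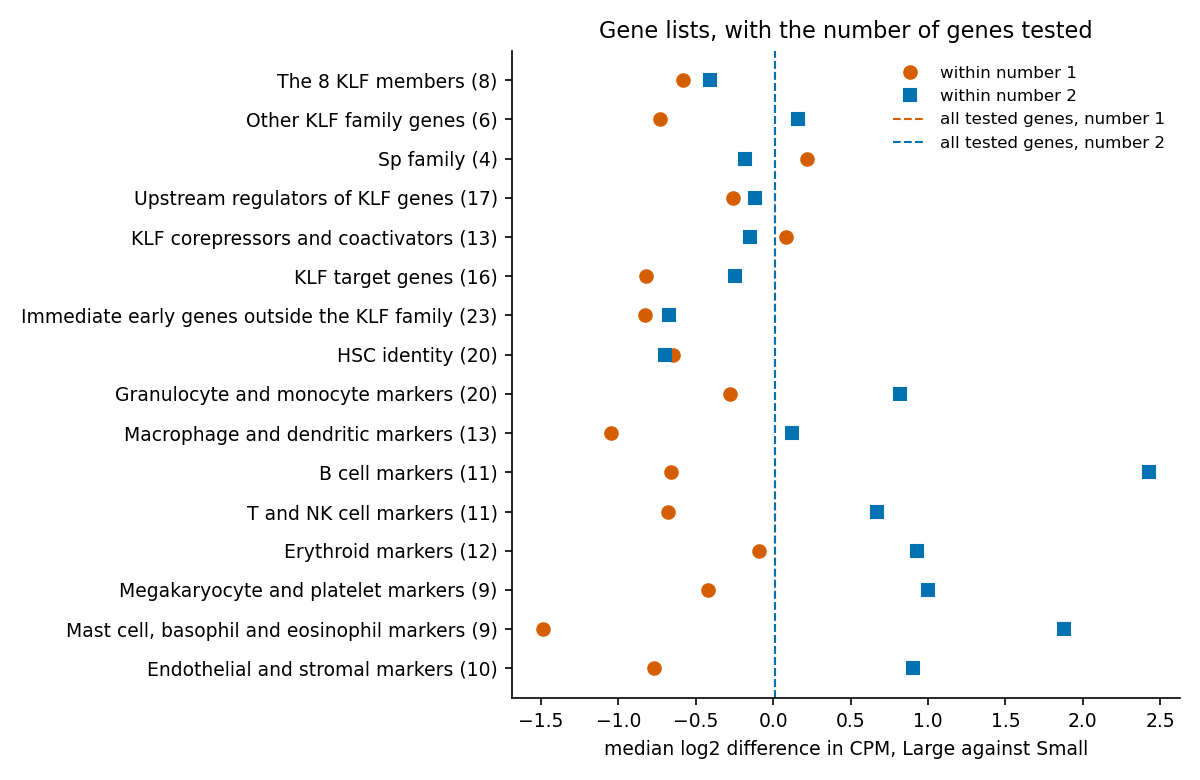
Median log2 difference in CPM of Large against Small within number 1 (circles) and within number 2 (squares) for the 8 KLFs and 15 other lists, with dashed lines at the median of all tested genes (0.01 in both). The KLFs (-0.58 and -0.41), the immediate early genes and the HSC identity genes lie to the left in both numbers, while 8 marker lists of other cells have the square to the right of the circle.

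The genes whose pattern was most like a member's were found by Pearson correlation of log2 CPM over the 8 libraries, among 10191 genes with a mean of at least 5 CPM. Libraries share gate, number and depth, so these values describe likeness and carry no test. Klf6 was most like Rtl8c (r = 0.993), Klf9 most like Mfng (0.994) and Klf10 most like Zfp831 (0.992). Klf4 was most like Decr2 (0.992) and, after Csnk1e (0.990), like Maff (0.989), an immediate early gene. Klf2 was most like R3hdm4 (0.935), Klf3 like Slc16a7 (0.958), Klf7 like Slfn1 (0.935) and Klf13 like Pigv (0.984). After the mean of each number was subtracted, the first gene was Slc39a14 for Klf2 (0.991), Fam84b for Klf3 (0.978), Prnp for Klf4 (0.994), Foxn3 for Klf6 (0.989), Angptl2 for Klf7 (0.975), Anxa5 for Klf9 (0.989), Ube2o for Klf10 (0.981) and again Pigv for Klf13 (0.984). Maff remained among the 3 most like Klf4, at 0.988. It is named for its class and not for its rank, and for the other members only the first gene is named.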

How the data were processed

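Per the submitters' processing notes, STAR 2.5.3a, RSEM 1.3.0, SAMtools 1.3 and build mm10 were used, and neither their roles nor an annotation release is stated there. Estimated counts per gene were deposited by the authors, as whole numbers without scaling. The deposited log2(TPM + 1) values add up to 1000000 TPM per library. Of 50686 IDs, 50376 matched GENCODE M21 (GRCm38, the assembly of mm10); counting by strand is not stated. The limit for a gene with no reads was set at 3 counts, 0.178 to 0.219 CPM; it covers counting error only, since PCR copies were not told apart.

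The test was edgeR 4.0.16 (R 4.3.3), quasi-likelihood with TMM scaling, group as the only term over 8 libraries (4 residual degrees of freedom), a minimum count of 10 and a Benjamini-Hochberg threshold of 0.05, two-sided. SE is the size of the log2 fold change over the square root of F. Within-number differences are of log2 CPM with a prior count of 2. DESeq2 1.42.0, limma 3.58.1 and a replicate block (3 residual degrees of freedom) were alternatives; the edgeR fit was tested on simulated data. The labels do not say what a replicate number marks. Differences between numbers 2 and 1 correlated between groups at 0.358 to 0.439 over all 6 pairs of groups, so the numbers were taken to pair libraries. The labels do not say that libraries of a group came from separate mice, so the p-values cover the spread of these libraries alone, some or all of it perhaps technical.

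Members and lists were chosen with earlier results of these data known. Beyond the members, named genes were by rule those with the lowest or highest fold change in Large against Small in each list, of at least 5 CPM on average, and the 3 genes most like each member. The mature marker lists cover granulocytes and monocytes, macrophages and dendritic cells, B, T and NK, erythroid, megakaryocyte, mast and endothelial cells. HSCs of drug-treated mice, named in the series design, were not analysed here.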

Additional observations from a re-analysis of the deposited data

How the results depend on the processing

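The count of members called was 0 in all 6 comparisons in edgeR with and without the replicate block, with DESeq2 size factors or upper-quartile scaling, with either filter, in DESeq2 and limma-voom without the block, on log2(TPM + 1) and log2(TPM + 0.1), with only the 4 libraries compared, and without any 1 library. DESeq2 with the replicate block called 2 in Large against Small, 2 in Large against Medium and 2 in Large against All. Limma-voom with the block, added after the data were seen, called 1 in Large against All. The cause was not tested. Over all genes, edgeR with and without the block called 0, DESeq2 2 to 47 per comparison, edgeR with no low-count filter 48 to 121, limma-trend on log2(TPM + 1) 0 to 1, DESeq2 with the block 12 to 1652 and limma-voom with the block 0 to 205. On the log2(TPM + 1) scale the median of all genes was -0.11 in Large against Small, and that of the members -0.58.

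Other settings were tried on fold changes of the members between the 3 size gates and of 10 list genes in Large against Small. None of these reversed in 408 checks, and 10 passed the threshold. Fold changes against All were not among them. Of 272 checks without 1 library, 22 reversed. Each such fit sets both numbers of a gate against 1 number of the other. Ranges over the left-out libraries in Large against Small were -0.77 to 0.58 for Klf7, -1.35 to 0.54 for Klf9, -0.93 to 0.24 for Klf10, -1.87 to 0.05 for Smad7, -4.02 to 1.72 for Nr4a3, -4.05 to 0.11 for Procr and -2.11 to 0.49 for Hoxa5. In Large against Medium they were -0.46 to 0.27 for Klf3 and -0.69 to 0.39 for Klf10. In Medium against Small they were -0.65 to 0.10 for Klf3, -0.18 to 0.88 for Klf4, -0.20 to 0.60 for Klf6, -0.30 to 1.04 for Klf7, -0.38 to 1.37 for Klf9 and -0.73 to 0.32 for Klf10. Klf2 and Klf13 kept their sign throughout, with -0.94 to -0.61 and -0.71 to -0.43 in Large against Small. There Klf4 ran from -1.76 (without Large 2) to -0.00 (without Small 2), Klf6 from -0.83 to -0.02 and S1pr1 from -2.42 to -0.51 without the same libraries, Klf3 from -0.52 (without Small 1) to -0.16 (without Small 2) and Tgfbr2 from -1.55 to -0.58 without the same. Egr1 ran from -2.20 to -0.54 and Foxo1 from -1.63 to -0.21, without Large 2 and without Large 1. In Large against Medium, without Large 2 and without Medium 2, Klf6 ran from -1.04 to -0.23 and Klf9 from -1.64 to -0.19, and Klf4 from -2.02 (without Large 2) to -0.28 (without Large 1). With 2 libraries per group and the number inside the spread, intervals for Klf4 and Klf9 span over 4 log2 units.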
